A study of Mus musculus with 3 samples.

Results

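The Shank, Homer and Dlgap genes encode 3 families of scaffold proteins of the postsynaptic density, the protein meshwork under the membrane of excitatory synapses. The 10 genes were taken by name (Shank1 to Shank3, Homer1 to Homer3 and Dlgap1 to Dlgap4) out of 32531 gene symbols with a count. They had been chosen by their counts in the same 3 libraries described here, so their levels are given as a description, with no test. The libraries hold RNA bound to tagged ribosomes of the dentate gyrus of adult C57BL/6J mice of the line Penk-TRAP NIDA186, which carries Penk-EGFP/Rpl10a. Penk, which encodes proenkephalin, lends its regulatory DNA to drive this fusion of a fluorescent and a ribosomal protein, and an antibody against the fluorescent tag pulls the ribosomes down. All 3 libraries are immunopurified samples of 1 group without treatment, called replicates 1, 2 and 3. The labels do not say whether each came from its own animal or from pooled tissue, so the spread between replicates may be technical in part. Input RNA was not analysed here, and genes can therefore be compared only with other genes of the same library.

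The 3 families are links of 1 chain from receptor to cytoskeleton. Glutamate receptors are held by membrane-associated guanylate kinases (MAGUKs) such as PSD-95, the product of Dlg4. The guanylate kinase domain of these proteins binds the Dlgap proteins (also called GKAP or SAPAP), the tail end of a Dlgap protein binds the PDZ domain of a Shank protein, and Shank proteins bind Homer. Homer proteins hold the proline-rich ligands of metabotropic glutamate receptors, inositol trisphosphate receptors and Shank in their EVH1 domain and form tetramers through a coiled coil, while Shank proteins reach actin through cortactin and other partners. A short product of Homer1, induced by neuronal activity, lacks the coiled coil and loosens these links. Messenger RNAs of several of the genes, among them Shank1 and Dlgap3, are known to be carried into dendrites, and mutations of SHANK genes are linked to autism in people.

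The bases that encode these links are shown because they tie the families together and let family members be told apart. They were read from GENCODE vM21 transcripts on GRCm38, in the longest complete coding sequence of each gene. The last 10 codons and the stop codon of the 4 Dlgap genes follow, with the 4 codons of the Shank-binding tail in capitals.
Dlgap1: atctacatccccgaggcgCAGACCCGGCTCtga
Dlgap2: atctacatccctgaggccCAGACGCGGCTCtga
Dlgap3: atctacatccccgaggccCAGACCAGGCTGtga
Dlgap4: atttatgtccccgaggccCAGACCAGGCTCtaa
The 4 capital codons encode the same 4 residues in each gene, yet the 33 bases differ between any pair of genes at 3 to 7 positions. In the Shank genes, the Homer-binding ligand is spelled by a pair of proline codons, any 2 codons and a phenylalanine codon, in capitals here.
Shank1: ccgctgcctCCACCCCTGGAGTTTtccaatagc
Shank2: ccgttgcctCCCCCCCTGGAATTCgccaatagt
Shank3: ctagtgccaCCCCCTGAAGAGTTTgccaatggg
The capitals start at base 4723, 4207 and 4150 of the coding sequences of Shank1, Shank2 and Shank3. Shank2 and Shank3 hold 1 more match of the codon pattern each, and the Homer and Dlgap coding sequences hold 0. The pattern is present in 6.95% of 21523 coding genes and in 31.1% of the 743 with a coding sequence of at least 5000 bases, so a match by itself names no binding site. Over whole transcripts, no stretch of 50 bases was shared between any 2 of the 10 genes, so a read of that length placed without mismatch could not pass from one member to another.

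The gene totals were 5348761, 19195559 and 11059982 counts in replicates 1, 2 and 3, and 8795, 14252 and 12019 genes had at least 10 counts. Replicate 1 is therefore the shallowest and least complete library. Levels are given as CPM (counts relative to the scaled library total) per kb of exon, since the members differ in exon length between 3.44 and 17.9 kb. All 8 pan-neuronal markers passed the filter on low counts, and 5 of them were called above the median tested gene (limma TREAT, adjusted p under 0.05). Of all 8156 tested genes, 10.6% were called above it. Among dentate granule cell markers, 3 of 6 tested genes lay above it (Prox1, Rfx3 and Stxbp6), while C1ql3 had 0, 1658 and 453 counts and Calb1 2, 1350 and 121. The summed level of the 9 astrocyte markers was 3079, 1384 and 3272 CPM, mostly Slc1a2. The summed level of the 8 oligodendrocyte markers was 878, 739 and 1210 CPM. Markers of GABAergic interneurons summed to 498, 322 and 443 CPM, those of pyramidal cells to 559, 670 and 1036, and those of endothelial and mural cells to 435, 972 and 334. The microglial markers summed to 3.30, 9.26 and 23.9 CPM, with C1qa at 0 in each library and 7 of 8 at 0 in replicate 1. The part of these other cells in the levels of the scaffold genes was not tested. In such mixed material, fewer cells of a type and less RNA per cell cannot be told apart.

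Among the Shank genes, Shank1 supplied most of the RNA in every library. Shank1 (chromosome 7, 44310253 to 44360572, plus strand, GRCm38 here and throughout) encodes a large scaffold of mature spines. It had 15163, 18328 and 16952 counts in replicates 1, 2 and 3, or 340, 76.1 and 138 CPM per kb, a mean of 185 ± 138 (SD, n = 3). Replicate 1 stood highest and replicate 2 lowest, yet Shank1 was among the top 3% of the 8156 tested genes in each library, at percentiles 99.5, 97.1 and 98.8. Shank2 (chromosome 7, 144001928 to 144424494, plus strand), whose long gene spans 423 kb, had 832, 3682 and 3894 counts, or 18.2, 14.9 and 30.9 CPM per kb (mean 21.4 ± 8.46). Shank3 (chromosome 15, 89499623 to 89560261, plus strand), the family member best known from human neurodevelopmental disorders, had 1519, 1023 and 958 counts, or 39.0, 4.86 and 8.92 CPM per kb (mean 17.6 ± 18.6). The high mean of Shank3 rests on replicate 1 alone, where it was above Shank2, whereas it lay below Shank2 in replicates 2 and 3.

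As a share of the family, per kb of exon, Shank1 made up 85.6, 79.4 and 77.6% in replicates 1, 2 and 3. Shank2 made up 4.59, 15.6 and 17.4% and Shank3 9.81, 5.07 and 5.02%. On the log2 scale per kb, Shank1 exceeded Shank2 by 4.22, 2.35 and 2.16 and Shank3 by 3.12, 3.96 and 3.95, so it led in 3 of 3 libraries against both. The log2 difference of Shank2 over Shank3 was -1.10, 1.61 and 1.79, a sign that was not shared by the libraries. A single count share is precise at this depth: the 86.6% of Shank counts on Shank1 in replicate 1 has an exact binomial 95% interval of 86.1 to 87.1%, and the 77.7% in replicate 3 one of 77.2 to 78.3%. Such intervals cover counting error only. The annotated gene 1700008O03Rik on the opposite strand overlaps 3.22% of the Shank1 exon bases. A further gene, Gm15609, which is not among the symbols counted here, overlaps 2.95% of the Shank3 exon bases.

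**Figure D1:**
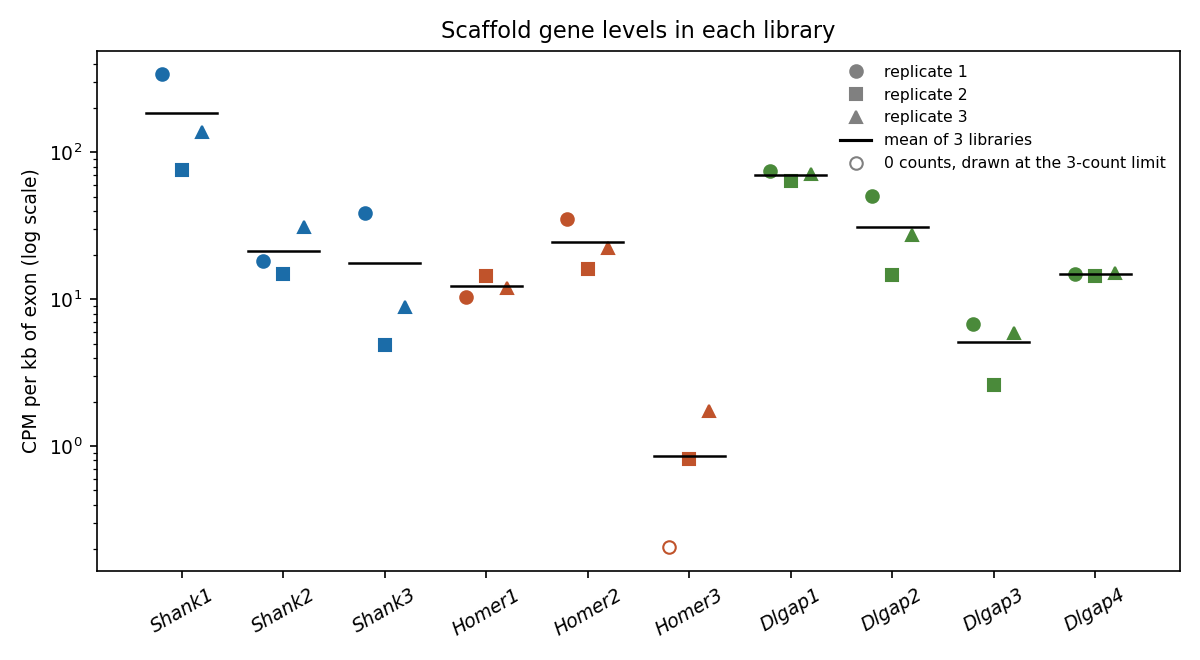
Level of the 10 scaffold genes in CPM per kb of exon (log axis) in replicates 1 (circles), 2 (squares) and 3 (triangles), with the mean of the 3 libraries as a line. Shank1 and Dlgap1 stand highest, Homer3 lowest (its open circle marks 0 counts, drawn at the 3-count limit), and Homer1, Dlgap1 and Dlgap4 have points that lie close together.

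Homer2 was the leading Homer gene and Homer3 was barely detected. Homer1 (chromosome 13, 93299635 to 93405129, plus strand) encodes both the long, constitutive forms and the short, activity-induced form. It had 528, 3956 and 1677 counts, or 10.4, 14.4 and 11.98 CPM per kb, a mean of 12.3 ± 2.03 (SD, n = 3). Its 3 libraries lay close together. Homer2 (chromosome 7, 81600481 to 81707527, minus strand), a long form with the coiled coil, had 1872, 4649 and 3303 counts, or 34.97, 16.1 and 22.4 CPM per kb (mean 24.5 ± 9.62). Homer2 stood above Homer1 in each library, by 1.75, 0.16 and 0.90 on the log2 scale per kb, so that in replicate 2 they were nearly level. Homer3 (chromosome 8, 70282827 to 70294361, plus strand), best known from cerebellar Purkinje cells, had 0, 64 and 70 counts, or 0.812 and 1.74 CPM per kb in replicates 2 and 3. Its 0 in replicate 1 allows up to 3 counts, or 0.707 CPM. Homer3 was the only member that did not pass the filter on low counts.

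The make-up of the Homer family differed between libraries. Per kb, Homer2 made up 77.1, 51.4 and 62.0% in replicates 1, 2 and 3, Homer1 22.9, 46.1 and 33.2%, and Homer3 0, 2.59 and 4.82%. The order of Homer2 and Homer1 depends on the length assigned to them, because both genes have long exons that only some transcripts hold. All annotated exons add up to 11976 bases for Homer1 and 12621 for Homer2, but the longest single transcript has 5713 bases in Homer1 and 10982 in Homer2. With that length in use, the log2 difference of Homer2 over Homer1 was 0.88, -0.71 and 0.03. Of 12 annotated Homer1 transcripts, 11 are coding. These have 5 to 10 exons, so a count per gene cannot tell the short form from the long ones. Gm44570 on the opposite strand, which is not among the symbols counted here, overlaps 4.16% of the Homer2 exon bases. Exons of the neighbouring gene Ddx49 on the opposite strand overlap 25.4% of the Homer3 exon bases. Reads there cannot be assigned without strand, so the Homer3 level is uncertain.

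**Figure D2:**
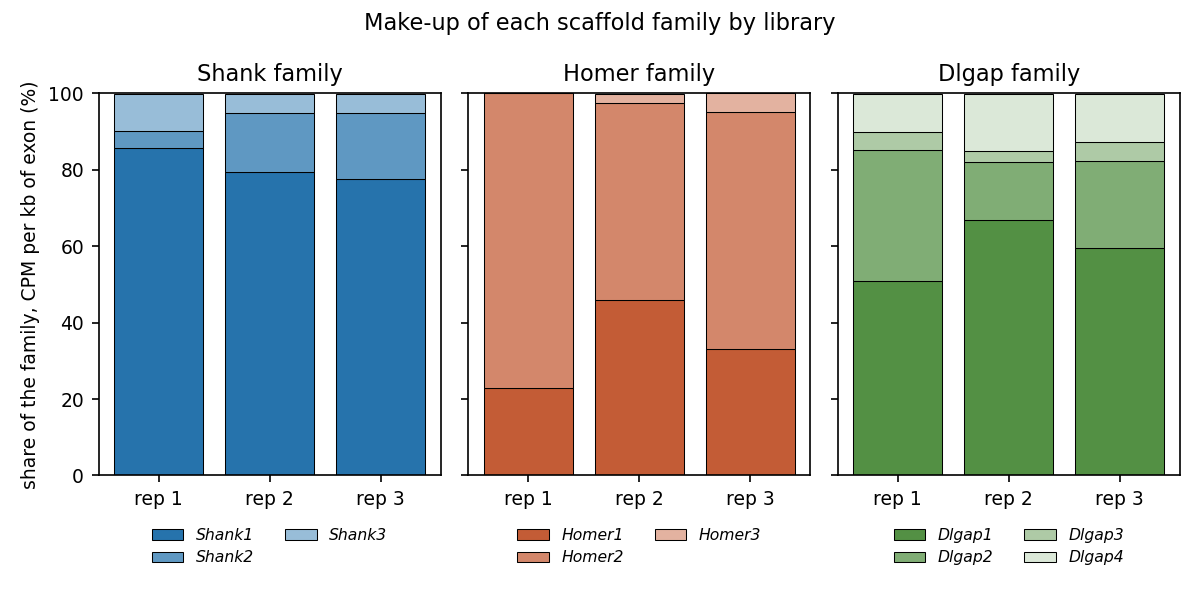
Share of each gene in the summed CPM per kb of exon of its family (percent, stacked from 0 to 100) in replicates 1 to 3, 1 panel per family. Shank1 fills 77.6 to 85.6% of its family, Homer2 51.4 to 77.1% and Dlgap1 50.9 to 66.8%.

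Dlgap1 led the Dlgap family with a nearly even level. Dlgap1 (chromosome 17, 69969073 to 70821413, plus strand), the GKAP first found with PSD-95, had 5690, 26099 and 14859 counts, or 74.98, 63.7 and 71.1 CPM per kb in replicates 1, 2 and 3, a mean of 69.9 ± 5.73 (SD, n = 3). The 3 values lie close together, and the gene stood at percentiles 95.1, 96.1 and 96.8 of the tested genes. Dlgap2 (chromosome 8, 14095865 to 14847680, plus strand) had 1319, 2046 and 1972 counts, or 50.6, 14.5 and 27.4 CPM per kb (mean 30.9 ± 18.3). Replicate 1 was high, as for Shank1 and Shank3. Dlgap3 (chromosome 4, 127169204 to 127237022, plus strand), whose loss in mice causes overgrooming, had 130, 270 and 314 counts, or 6.78, 2.61 and 5.94 CPM per kb (mean 5.11 ± 2.21), and was the lowest Dlgap gene in each library. Dlgap4 (chromosome 2, 156613705 to 156764363, plus strand) had 533, 2801 and 1486 counts, or 14.9, 14.5 and 15.04 CPM per kb (mean 14.8 ± 0.294), the smallest SD of the 10 genes on this scale.

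Per kb of exon, Dlgap1 made up 50.9, 66.8 and 59.5% of its family, Dlgap2 34.4, 15.2 and 23.0%, Dlgap3 4.61, 2.74 and 4.97%, and Dlgap4 10.1, 15.2 and 12.6%. The log2 difference of Dlgap1 over Dlgap4 was 2.33, 2.14 and 2.24, the steadiest ratio within a family, with an SD of 0.10. Dlgap1 exceeded Dlgap2 by 0.57, 2.13 and 1.37 and Dlgap3 by 3.46, 4.59 and 3.57, in 3 of 3 libraries. Dlgap2 and Dlgap4 were level in replicate 2, at a log2 difference of 0.01, against 1.76 and 0.87 in replicates 1 and 3. The sign in replicate 2 depends on length. The difference there was -0.452 without length correction, -0.345 with the longest transcript and -0.145 with exons of RefSeq-matched transcripts. Dlgap1 has 20 annotated transcripts and 17.9 kb of exon, the most of the 10 genes, but its longest transcript has 7173 bases. With that transcript as its length its mean share is 71.1%, against 59.1% with all exons. The mitotic relative Dlgap5, which has no known synaptic role and was not among the 10 genes, had 0, 106 and 0 counts.

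Across the families, Shank1 and Dlgap1 stood highest and Homer3 lowest per kb of exon. Here a level is the log2 CPM per kb of a gene minus that of the median tested gene of its library. The mean levels were 4.67 for Shank1, 3.53 for Dlgap1, 2.18 for Dlgap2, 1.95 for Homer2, 1.76 for Shank2, 1.30 for Dlgap4, 1.01 for Homer1, 0.99 for Shank3 and -0.34 for Dlgap3, in falling order, with Homer3 last. Only Dlgap1 and Dlgap2, Dlgap4 and Homer1, and Dlgap3 and Homer3 were neighbours in that order whose ranges over the libraries did not overlap. Dlgap4 and Homer1 were apart by a narrow margin, and their order turned without length correction, at mean levels of 2.03 for Dlgap4 and 2.25 for Homer1. The other neighbours had ranges that met. Within each library, Shank1 was still above Dlgap1, Shank2 above Dlgap4 and Shank3 above Dlgap3 in 3 of 3 with all exons as length. Dlgap2 over Homer2, Homer2 over Shank2 and Homer1 over Shank3 held in 2 of 3. The order of Shank1 and Dlgap1 depends on length. With the longest transcript, Dlgap1 had the higher mean level, at 4.399 against 4.31. Shank1 led with RefSeq-matched exons (4.229 against 4.135) and without length correction (5.716 against 5.351). Without length correction, Dlgap1 still led in replicate 2, at 1139 against 800.2 CPM. By family, the summed level was 397, 95.9 and 178 CPM per kb for Shank, 45.4, 31.3 and 36.1 for Homer and 147, 95.3 and 120 for Dlgap in replicates 1, 2 and 3. Homer RNA was the scarcest of the 3 families in each library, and Shank and Dlgap RNA were level in replicate 2 with all exons as length. Without length correction, Dlgap led in replicate 2, at 1363 against 1006 CPM, while Shank led in replicates 1 and 3.

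Of the 9 scaffold genes that passed the filter, 2 (Shank1 and Dlgap1) were called above the median tested gene, where 10.6% of 8156 tested genes were, and 0 were called below it, where 4.21% were (limma TREAT with a log2 threshold of 1, adjusted p under 0.05). Nothing is read from these counts, since the counts behind them chose the members. The median level of the 9 genes was 1.76, that of all tested genes -0.14. The count depends on the setting: 5 of 10 were called above without replicate 1 (among 1589 of 10762 tested genes), 6 of 9 without length correction (1196 of 8510) and 8 of 10 without the filter (3027 of 15580).

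The members differed in how even they were between the libraries. The range of the level between the libraries was 0.24 for Dlgap4, 0.27 for Homer1 and 0.44 for Dlgap1, against a median range of 1.82 over all tested genes. It was 1.10 for Shank2, 1.32 for Homer2, 1.57 for Dlgap3, 2.0 for Dlgap2, 2.36 for Shank1 and 3.20 for Shank3, all log2. In Shank1, Shank3, Homer2, Dlgap2 and Dlgap3 replicate 1 was highest and replicate 2 lowest. Dlgap1 and Dlgap4 had the same order of levels within their small ranges. Homer3, with 0 counts in replicate 1, was lowest there. In all, 7 of the 10 genes were highest in replicate 1 on this scale, where 40.7% of tested genes were, and 2 were lowest there, where 38.8% were. In TMM-scaled CPM, 6 of the 10 were highest in replicate 1, without Dlgap4. In counts over the plain gene total 4 were (Shank1, Shank3, Homer2 and Dlgap2), and 5 were lowest there, among them Dlgap1 and Dlgap4. The shares of all tested genes were not computed in TMM-scaled CPM or in plain counts. No trait of the members is therefore read from these counts. The difference between replicate 1 and the mean of the others was 2.74 for Shank3, 1.91 for Shank1 and 1.52 for Dlgap2, against -0.06 for Shank2 and -0.16 for Homer1 (log2; SD over all tested genes 1.86).

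Base composition and exon length were set beside that pattern. The longest coding transcript held 61.4% G and C in Shank1, 62.4% in Shank3, 55.3% in Dlgap2, 63.9% in Dlgap3 and 44.4% in Homer2. In Dlgap1 and Dlgap4, which had the same order within small ranges, it held 50.9% and 59.4%. It held 36.9% in Homer1, 55.0% in Shank2 and 60.2% in Homer3. In Homer1 this transcript has 5 exons, the fewest of its coding transcripts, so the value need not hold for the forms with more exons. Across 8155 tested genes, which share the same libraries, the difference of replicate 1 from the others had a Spearman correlation of 0.152 with transcript G and C content and 0.06 with exon length. The share of all reads that fell on genes was 16.3% in replicate 1, against 38.2 and 21.1% in replicates 2 and 3. The part of base composition and of library quality in these differences was not tested. The spread also moves with the scaling: with unscaled CPM the log2 range of Shank1 was 1.57 and that of Shank3 2.41, that of Homer1 1.06 and that of Dlgap4 0.55. On that scale Dlgap1 (0.35) and Homer2 (0.53) were the most even, so which genes are even is not the same on both scales.

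**Figure D3:**
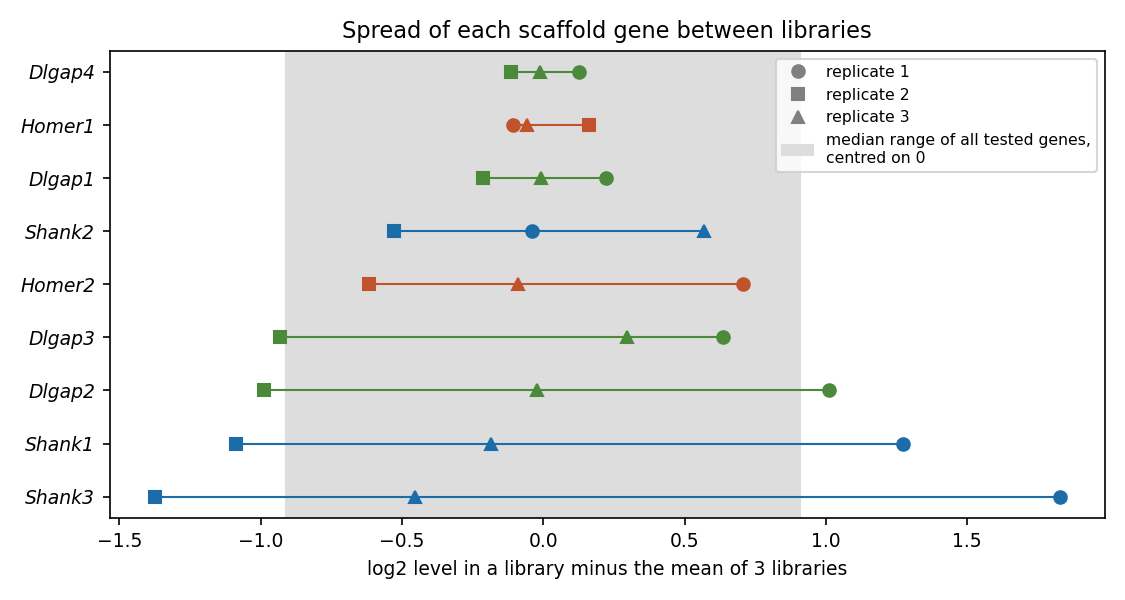
Level of each of the 9 tested scaffold genes in replicates 1 (circles), 2 (squares) and 3 (triangles) as the log2 difference from the mean of the 3 libraries. The grey band has the width of the median range of all tested genes (1.82). Dlgap4, Homer1 and Dlgap1 span less than 0.5, Shank1 and Shank3 more than 2.

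The proteins that these scaffolds bind were read from gene lists of their own. These lists too were chosen with earlier results of these data known, so their counts are a description, and each adjusted p compares 1 gene with the median gene among all tested genes. Of 66 tested genes in these lists together, 25 lay above the median gene and 2 below it, where 10.6% and 4.21% of all tested genes did, and their median level was 1.72, against -0.14 for all tested genes. Of the MAGUK genes, 1 of 7 lay above, a share near the 10.6% of all tested genes (list median 1.17), and 2 did without replicate 1. Dlg2, which encodes PSD-93, had 95.4, 59.7 and 84.3 CPM per kb, a level of 3.70 (SD 0.44, n = 3, adjusted p = 3.7e-05, limma). Dlg4, the gene of PSD-95, had 10.2, 9.81 and 11.9 CPM per kb, at a level of 0.81 (adjusted p = 0.943, limma), and Dlg1 was lowest with a mean of 4.06 ± 1.77. Dlg2 thus lay close to Dlgap1, at 79.8 ± 18.2 against 69.9 ± 5.73 CPM per kb on average, a difference within the spread of the libraries.

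Among partners of Shank, 4 of 11 lay above the median gene and 0 below (list median 1.10). These were Nckap1 at 363 ± 179, Cyfip2 at 264 ± 111 and Wasf1 at 144 ± 23.2 CPM per kb (SD, n = 3), which belong to the WAVE complex that starts branched actin, and Lrrc7 (densin) at 68.3 ± 18.8. Their levels were 5.75, 5.38, 4.56 and 3.46 (adjusted p from 1.6e-08 to 6.2e-05, limma). Abi1 and Cyfip1, also of the WAVE complex, were not called, at levels of 2.05 and -0.04 (adjusted p = 0.131 and 0.999, limma). Cttn, the gene of cortactin, had 484, 530 and 143 counts, or 27.2, 5.52 and 2.92 CPM per kb, highest in replicate 1 like Shank1. The lowest by mean CPM per kb was Sharpin at 4.91 ± 2.74.

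Among partners of Homer, 2 of 11 tested genes lay above and 1 below (list median 1.52). Grm5, the gene of the metabotropic receptor mGluR5, was the most even partner by level, with 29.0, 29.6 and 29.6 CPM per kb. Its level was 2.29 (SD 0.09, adjusted p = 0.0221, limma), and its evenness depends on the scaling. Agap2, whose product PIKE links Homer to kinase signalling, had 59.4, 17.9 and 25.1 CPM per kb (level 2.31, adjusted p = 0.035, limma). Both calls ended without replicate 3 and with RefSeq-matched exons as length, the Grm5 call also without replicate 2 and the Agap2 call with the longest transcript as length. Without replicate 1, 5 partners were called above. The inositol trisphosphate receptor gene Itpr1 had 9.27, 16.8 and 46.3 CPM per kb, lowest in replicate 1 and highest in replicate 3. Of the ryanodine receptor genes, the muscle gene Ryr1 lay below at 0.335 ± 0.0713 CPM per kb (level -4.16, adjusted p = 0.00451, limma), a call that ended without replicate 3, without length correction and without the filter. Trpc1, a channel gene, had 4, 553 and 866 counts and was not tested.

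Among partners of Dlgap, 2 of 6 lay above and 0 below (list median 2.28), and 4 lay above without replicate 1. Nefl, the light neurofilament gene, had 348 ± 188 CPM per kb (level 5.69, adjusted p = 1.1e-08, limma), and Sipa1l1, whose product SPAR sits in spines, 155 ± 20.3 (level 4.68, adjusted p = 9.8e-07, limma). The dynein light chain genes Dynll1 and Dynll2 had 8.54, 81.0 and 40.2 and 23.8, 33.8 and 27.4 CPM per kb, at levels of 2.33 and 2.22 that missed the threshold (adjusted p = 0.0567 and 0.0747, limma). Begain was lowest at 2.16 ± 1.53.

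Of 21 tested genes for other postsynaptic density proteins, 12 lay above the median gene and 0 below (list median 2.58). Camk2a, the alpha subunit of the synaptic kinase CaMKII, was highest at 1917, 824.5 and 1218 CPM per kb (level 7.69, adjusted p = 1.1e-08, limma) and thus exceeded Shank1 in each library. It was highest in replicate 1 and lowest in replicate 2, the same order as Shank1. Ctnnd2, the gene of delta-catenin, had 77.1, 84.2 and 77.9 CPM per kb. The range of its level between libraries was 0.14 (log2), against 0.44 for Dlgap1. These ranges move with the scaling, as described for the scaffold genes. Ppp1r9b (spinophilin) had 143, 39.5 and 53.6 CPM per kb and lay above (level 3.48). Pick1, with 4, 170 and 3 counts, was lowest and not tested.

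**Figure D4:**
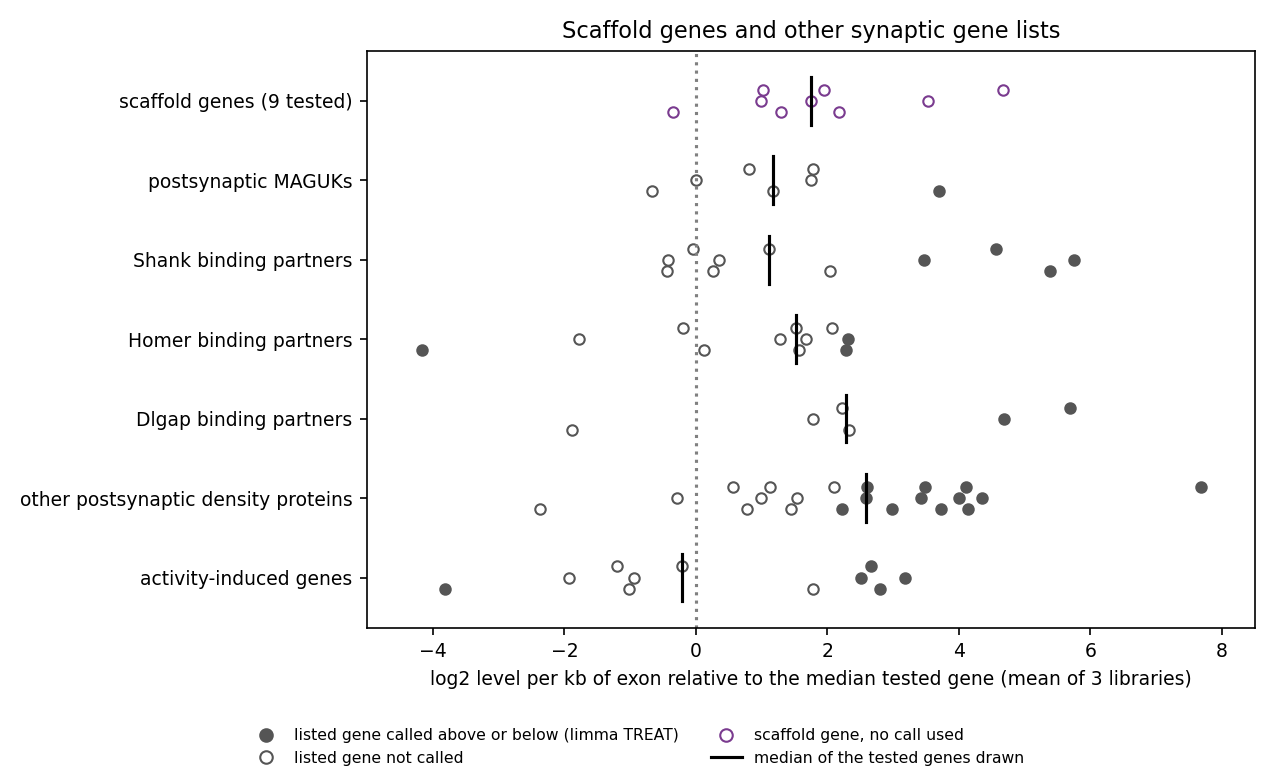
Mean log2 level per kb of exon relative to the median tested gene (dotted line) for the 9 tested scaffold genes and the tested genes of 6 other lists. Filled points are listed genes called above or below it (limma TREAT), scaffold genes are drawn open with no call used, and lines mark list medians. The 2 calls below the median gene are Ryr1 and Npas4.

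Homer1 was set beside other genes that neuronal activity induces, since its short form is one of them. A promoter of Homer1, from RefSeq on GRCm38.p6, is shown for its copies of the core of the cyclic AMP response element, the site bound by the activity-regulated factor CREB. It was picked for these copies. Another Homer1 promoter from the same source (chr13:93307784-93308083) holds none. The sequence gives the 250 bases before the start of transcription of the promoter that was picked (chr13:93303507-93303756, plus strand), with the cores in capitals.
Homer1: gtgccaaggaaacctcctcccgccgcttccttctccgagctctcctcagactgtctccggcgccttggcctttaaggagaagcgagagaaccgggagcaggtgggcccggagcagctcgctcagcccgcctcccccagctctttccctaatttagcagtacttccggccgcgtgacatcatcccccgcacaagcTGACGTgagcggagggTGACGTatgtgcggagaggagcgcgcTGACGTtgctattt
The core TGACGT, searched on both strands, occurs 3 times, and the full palindrome TGACGTCA, which contains it, 0 times. Of 32851 RefSeq promoters of 300 bases, 7.51% hold the core at least once and 0.201% hold it 3 times or more. Promoters of 7 of the 10 members were found in the table, 10 in all, and the core was present only in this one. A match is a description and not a measure of binding.

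Of 11 tested activity-induced genes, 4 lay above the median gene and 1 below (list median -0.21), where 10.6% and 4.21% of all tested genes did. Egr3 was highest at 96.0, 65.7 and 25.8 CPM per kb in replicates 1, 2 and 3 (level 3.18, adjusted p = 5.6e-04, limma), and Nr4a2, Egr1 and Plk2 lay above too, at levels of 2.80, 2.50 and 2.66. Npas4 lay below, with 15, 22 and 14 counts (level -3.81, adjusted p = 6.8e-04, limma), a call that ended without the filter. Arc, whose RNA is carried into dendrites, had 74.3, 6.78 and 17.7 CPM per kb, while Homer1 had 10.4, 14.4 and 11.98. Homer1 was thus lowest in replicate 1, where Arc, Egr1 and Egr3 were highest. Plk2 (29.1, 42.8 and 44.6) and Rheb (0.611, 12.4 and 3.32) were lowest in replicate 1 like Homer1. Fos had 0, 36 and 0 counts and Junb, the lowest of the list, 0, 17 and 0, so neither was tested. Without replicate 2, Egr1 and Plk2 lost the call, and without replicate 3, Nr4a2 and Plk2, which left 2 genes above in each case.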

How the data were processed

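The authors deposited whole-number read counts per gene symbol, 1 file for each of 3 libraries of 1 group. Alignment software (STAR 2.0.0e), the counter HTSeq and the build mm10 are listed in the submitters' processing notes. The annotation, the strand setting and filters are not given in the sources used here. Rows that name no gene were left out. Genes held 16.3, 38.2 and 21.1% of the tallied reads, and reads on no feature 50.7, 35.4 and 40.5%. Counts were scaled with TMM (factors 0.793, 1.19 and 1.06; edgeR 4.0.16, R 4.3.3) and divided by the union of exons in GENCODE vM21 on GRCm38, which is mm10. Of 32531 symbols, 23161 matched it directly and 736 through RefSeq synonyms. The filter filterByExpr and a known length kept 8156 genes. Levels are log2 CPM per kb with a prior count of 2, minus the median tested gene of the library, tested with limma 3.58.1 (TREAT, log2 threshold of 1, trend on mean log2 CPM, intercept only), with Benjamini-Hochberg adjustment over all tested genes and a threshold of 0.05. This departs from a count test because 1 group gives no contrast. The test script was tested on simulated data. Members and gene lists were chosen with earlier results of these data known. Named were all members and, of each list, the highest and lowest gene, any gene below the median gene where 3 or fewer were, and partners with a described role. DESeq2 1.42.0 size factors served as an alternative, with others given in the closing section. Figures were drawn with matplotlib 3.10.9. Some genes of the lists are not reported here by name.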

Additional observations from a re-analysis of the deposited data

How the results depend on the processing

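No paired analysis was possible because the labels give 1 group. With no filter on counts, so that 15580 genes were tested, 3027 genes lay above and 2833 below it; of the lists together 46 lay above and 4 below, with 5 MAGUK genes, 7 Homer partners, 5 Dlgap partners and 19 other postsynaptic density genes above, 0 Homer partners below and 3 activity-induced genes below (Fos, Junb and Egr2, without Npas4). Without length correction, 3 MAGUK genes and 6 Homer partners lay above, and below the median gene were 1 listed gene and 0 Homer partners. With exons of RefSeq-matched transcripts, an alternative chosen after seeing the data, 1 Homer partner lay above, Dnm3, and the calls of Grm5 and Agap2 ended. With 1 replicate left out at a time, from 610 to 1589 genes lay above and from 240 to 627 below. Of the listed genes, 1 to 3 lay below. Above lay 1 to 2 MAGUK genes, 0 to 5 Homer partners, 2 to 4 Dlgap partners and 2 to 4 activity-induced genes. Below lay 0 to 1 Homer partners and 1 to 2 activity-induced genes. The cause was not tested in these cases, beyond the change in genes tested. The mean Homer2 share was 50.1% with the longest transcript as length, against 63.5%. The mean Dlgap1 share was 79.2% without length correction, 71.1% with the longest transcript and 69.6% with RefSeq-matched exons, against 59.1%. DESeq2 size factors, no scaling factor and a prior count of 0.5 changed no count of calls by over 1.5 times. A level subtracts the median tested gene of its library, which all but cancels any factor for the whole library. Like counts of calls with other scaling factors therefore could not test the scaling. Replicate 1, the shallowest library, limits what can be said of low genes such as Homer3.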
